A study of Mus musculus with 2 samples.

Results

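Kit, Sohlh1, Sohlh2, Neurog3 and Nanos3 act on the path that takes male germ cells out of the stem cell pool and towards meiosis. They were taken by symbol from the 21911 protein-coding genes of GENCODE M21 (5 genes of 21911). The rule uses no measured value, but the 5 genes were chosen with earlier results of these data known. Open chromatin around them was read from DNase-seq, which sequences the ends that the enzyme DNase I leaves where DNA is accessible, of whole testis of male B6CASTF1/J mice aged 14 days. This strain is a first-generation cross of C57BL/6 and castaneus-derived parents. The labels describe 1 group with 2 libraries. Replicate 1 is labelled as tissue of 3 males and the label of replicate 2 does not give the number of animals. The donor label is shared, and the spread between the 2 may thus be partly technical. With 1 group there is no comparison between conditions and no test, and each value is given per library or as mean ± SD (n = 2).

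Spermatogonia begin as undifferentiated cells that renew themselves or divide into connected progenitors, and retinoic acid then moves the progenitors into differentiation. Neurog3 is known as a marker of progenitors that still lack KIT, and Nanos3 as an RNA-binding protein of early germ cells and spermatogonia. The helix-loop-helix factors SOHLH1 and SOHLH2 are needed for differentiation, at which the cells put the receptor KIT on their surface, and KIT receives stem cell factor from Sertoli cells. In juvenile mouse testis, spermatogonia lie beside Sertoli cells and the spermatocytes of the first wave of meiosis.

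Markers of testis cells were mostly open, as were most genes. A promoter peak in both libraries was found at all 10 listed Sertoli cell markers, at all 18 genes of a list on spermatogonial differentiation and at 68.7% of all protein-coding genes. With the shorter of the 2 peak lists per library these were 8 of 10, 17 of 18 and 63.4%. Lists of other tissues, given at the end, were also open in part, so presence alone does not identify the tissue. Per library, the longer of the 2 deposited peak lists was used, with 101172 peaks in replicate 1 and 117359 in replicate 2, each of which reached a cut rate with a false discovery rate (FDR) below 0.05. The value of a peak is the authors' own signal on a scale set per library. How many reads a unit stands for is not stated, so the sequencing depth is unknown. The median promoter value over all protein-coding genes was 1.42 in replicate 1 and 1.30 in replicate 2. In whole tissue, fewer cells of a type and less open DNA per cell cannot be told apart.

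The sequences below are the strongest promoter peak of each gene, shown because the results on footprints and motifs turn on them, followed by strong distal peaks of Sohlh1, Sohlh2, Neurog3 and Nanos3, which are among the strongest distal peaks of these genes. They are read from the GRCm38.p6 reference (mm10) on the strand of the gene, 5′ to 3′, and castaneus alleles may differ. Capitals mark bases inside a footprint, a short stretch protected from cutting within an open region, in both libraries. In the Nanos3 promoter they mark footprints of replicate 2, which alone had that peak. The Kit and Sohlh2 promoters (chr5:75574821-75574915 and chr3:55181901-55182027, both on the plus strand) stop before the first annotated base of the transcript. The Sohlh1 promoter is chr2:25847321-25847540 (minus strand), that of Neurog3 chr10:62132821-62133054 (plus) and that of Nanos3 chr8:84176637-84176847 (minus). The distal peaks are chr2:25852721-25852920 (Sohlh1, minus), chr3:55146481-55146700 (Sohlh2, plus), chr10:62128741-62129020 (Neurog3, plus) and chr8:84198421-84198660 (Nanos3, minus).
Kit promoter: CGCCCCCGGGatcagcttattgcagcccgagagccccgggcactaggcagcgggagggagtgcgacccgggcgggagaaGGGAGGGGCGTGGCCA
Sohlh1 promoter: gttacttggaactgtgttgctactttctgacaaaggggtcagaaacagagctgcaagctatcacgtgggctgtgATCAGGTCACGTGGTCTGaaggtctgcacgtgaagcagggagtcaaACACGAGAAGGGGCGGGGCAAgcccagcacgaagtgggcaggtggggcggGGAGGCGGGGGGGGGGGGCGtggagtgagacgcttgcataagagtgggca
Sohlh2 promoter: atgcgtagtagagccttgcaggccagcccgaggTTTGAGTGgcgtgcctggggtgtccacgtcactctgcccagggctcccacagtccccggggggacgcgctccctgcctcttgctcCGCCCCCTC
Neurog3 promoter: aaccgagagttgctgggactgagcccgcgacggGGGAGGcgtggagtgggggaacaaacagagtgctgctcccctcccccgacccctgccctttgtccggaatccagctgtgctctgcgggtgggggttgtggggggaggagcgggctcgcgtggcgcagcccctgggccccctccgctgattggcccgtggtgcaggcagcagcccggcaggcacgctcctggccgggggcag
Nanos3 promoter: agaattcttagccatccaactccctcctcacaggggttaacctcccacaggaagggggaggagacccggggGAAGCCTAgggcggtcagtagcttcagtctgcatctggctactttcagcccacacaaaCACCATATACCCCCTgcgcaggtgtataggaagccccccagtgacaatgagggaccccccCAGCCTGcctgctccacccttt
Sohlh1 upstream: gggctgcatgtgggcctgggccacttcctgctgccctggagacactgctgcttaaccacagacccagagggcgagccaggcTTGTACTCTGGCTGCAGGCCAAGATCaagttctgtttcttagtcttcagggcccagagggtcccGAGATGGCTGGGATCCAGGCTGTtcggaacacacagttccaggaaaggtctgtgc
Sohlh2 upstream: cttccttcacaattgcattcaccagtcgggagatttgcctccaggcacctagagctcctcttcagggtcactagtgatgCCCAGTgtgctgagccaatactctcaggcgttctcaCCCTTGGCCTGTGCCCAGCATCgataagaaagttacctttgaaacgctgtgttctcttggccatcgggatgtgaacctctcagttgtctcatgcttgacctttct
Neurog3 upstream: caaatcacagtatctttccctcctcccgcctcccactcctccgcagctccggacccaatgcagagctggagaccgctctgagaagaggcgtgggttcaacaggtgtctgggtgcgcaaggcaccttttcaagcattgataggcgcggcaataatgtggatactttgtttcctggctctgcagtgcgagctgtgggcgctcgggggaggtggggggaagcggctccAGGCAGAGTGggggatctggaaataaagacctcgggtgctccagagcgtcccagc
Nanos3 upstream: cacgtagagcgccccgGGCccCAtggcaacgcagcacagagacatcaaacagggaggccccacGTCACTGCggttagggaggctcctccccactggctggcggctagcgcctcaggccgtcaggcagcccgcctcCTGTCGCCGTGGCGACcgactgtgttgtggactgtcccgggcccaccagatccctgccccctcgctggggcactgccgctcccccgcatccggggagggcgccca

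The promoters of Kit, Sohlh1 and Sohlh2 were open at similar, middling levels, that of Neurog3 was weakly open, and that of Nanos3 had a peak in replicate 2 alone. Thus 4 of the 5 genes had a promoter peak, one within 1000 bp of an annotated start, in both libraries, and 68.7% of all protein-coding genes did. In replicate 1 alone the count was 4 of 5 (70.2% of all genes) and in replicate 2 it was 5 of 5 (70.5%). A peak in 1 library only was found for 3.25% of all genes. The median promoter value of the 5 genes was 2.77 in replicate 1 and 2.52 in replicate 2, whereas genes with a promoter peak had medians of 3.87 and 3.503. The median of the 5 genes thus lay above that of all genes and below that of open promoters. Among all genes, percentiles in replicate 1 and replicate 2 were 62.9 and 62.9 for Kit, 59.2 and 62.0 for Sohlh1, 59.5 and 59.2 for Sohlh2, and 39.6 and 40.7 for Neurog3. Kit was highest in both libraries, whereas Sohlh1 and Sohlh2 exchanged places between them, so the order of those 2 genes is not settled by these data.

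**Figure D1:**
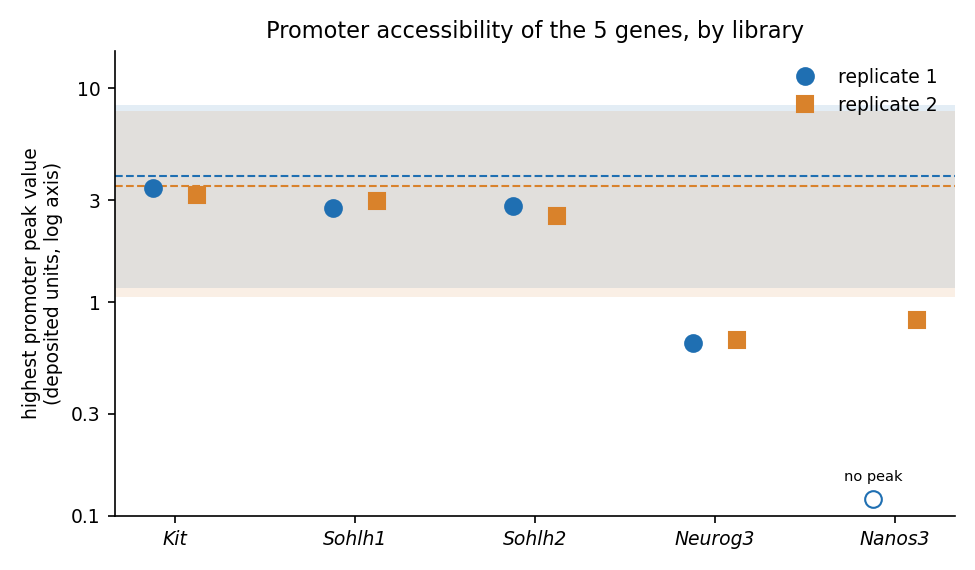
Highest promoter peak value of each gene (log axis, units of the deposited files) in replicate 1 (circles) and replicate 2 (squares). Dashed lines are the library medians of genes with a promoter peak (3.87 in replicate 1, 3.503 in replicate 2) and bands run from the 25th to the 75th percentile (1.16 to 8.35 in replicate 1, 1.06 to 7.80 in replicate 2); Kit, Sohlh1 and Sohlh2 lie inside the bands and Neurog3 and Nanos3 below them, and the open circle stands for the absent Nanos3 peak of replicate 1.

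Kit encodes the receptor tyrosine kinase for stem cell factor (ENSMUSG00000005672.12, chr5:75574916-75656722, plus strand, 8 annotated starts). Its promoter peak had a value of 3.44 in replicate 1 and 3.16 in replicate 2, or 3.30 ± 0.20 (SD, n = 2). The peak lay over the first exon and the bases just before it, and its upstream border, at base 75574821, was the same in both libraries. A second, weaker peak in an intron, centred 895 bp downstream of the start, had 1.01 and 1.08. Around the first start, within 1000 bp on each side, 1384 bases in replicate 1 and 1431 in replicate 2 had an FDR below 0.05, against medians of 578 and 591 over all genes. Kit thus had more such bases than most genes (percentiles 88.5 and 88.8), although the peak value was moderate. Among genes open in both libraries the medians were 908 and 932. The lowest FDR there was 3.64e-43 in replicate 1 and 4.82e-51 in replicate 2.

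Footprints at the Kit start outnumbered the median of comparable peaks. The peak held 6 in replicate 1 and 8 in replicate 2, and peaks of like width and value held a median of 4 and 5, with a 5th to 95th percentile range of 2 to 7 and 2.35 to 7.65. One of the footprints, found in both libraries, spanned -17 to 0 in replicate 1 and -16 to 4 in replicate 2, where 0 is the first annotated base of the transcript, as for all positions given here. The intron peak held no footprint in replicate 1 and 1 in replicate 2, below the medians of 3 and 4 of its comparable peaks. The strongest promoter peaks of the other genes were not regularly above such medians. In replicate 1 and replicate 2, Sohlh1 had 4 against 4 and 4 against 5, and Sohlh2 had 5 against 4 and 3 against 5. Neurog3 had 4 against 2 and 3 against 3, and Nanos3 had 3 against 3 in replicate 2. Footprints were called from the same cuts as the peaks, so they are not an independent measurement.

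The surroundings of Kit held no strong peaks. There were 8 distal peaks in each library, and the median gene had 4 in both. Distal peaks were defined as peaks up to 50 kb from a start that overlap no promoter window of any protein-coding gene. Kit has 8 starts, so a longer stretch was searched: per 100 kb there were 4.59 in each library, against medians of 3.00 in replicate 1 and 3.95 in replicate 2. All 5 genes had such peaks in both libraries, as did 83.9% of all genes. The strongest at Kit that both libraries listed lay at -37.0 kb from the start, with 0.430 in replicate 1 and 0.664 in replicate 2. Those at 21.5 kb (0.387 and 0.510) and 1.4 kb (0.419 and 0.385) lay in introns of Kit, the last 234 bp outside the promoter window in replicate 1. The distal regions of Kit had a median of 0.387 in replicate 1 and 0.385 in replicate 2. These lay somewhat below the medians of all peaks outside promoters, 0.462 and 0.442. No distal peak of Kit exceeded 0.664, a value above both of those medians. Of the peaks found in 1 library, the strongest was intronic, at 26.8 kb, with 0.382 in replicate 1. No start of another protein-coding gene lay within reach of any of these regions.

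Sohlh1 encodes a basic helix-loop-helix factor of germ cells that is needed for spermatogonial differentiation (ENSMUSG00000059625.6, chr2:25842995-25847248, minus strand, 1 start). Its strongest promoter peak, centred 183 bp upstream of the start, had 2.77 in replicate 1 and 2.97 in replicate 2 (2.87 ± 0.15, SD, n = 2). A second peak over a coding exon, centred at 517 bp, had 1.34 and 1.38. Between them, over an intron, a peak of 0.737 was listed in replicate 1 alone. Replicate 2 nevertheless had all 210 bases of that stretch below an FDR of 0.05, down to 8.01e-05, so its absence from the list does not mean that the cut rate was low there. Within 1000 bp of the start, 1068 bases in replicate 1 and 1159 in replicate 2 were below an FDR of 0.05 (percentiles 74.1 and 77.4).

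Most footprints of the Sohlh1 promoter recurred in both libraries. Of 4 footprints in its strongest peak in each library, 3 overlapped between libraries, at -122 to -103, -172 to -149 and -218 to -201 in replicate 1. Over all promoter peak regions of the 5 genes, 13 of 22 footprints of replicate 1 overlapped one of replicate 2, and 13 of 31 of replicate 2 overlapped one of replicate 1. Over shared promoter peaks genome-wide, the shares were 68.6% for replicate 1 and 60.2% for replicate 2. The counts of the 5 genes, unlike these shares, include peaks listed in 1 library. Promoter footprints were present in both libraries at 4 of the 5 genes and at 67.3% of all genes.

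**Figure D2:**
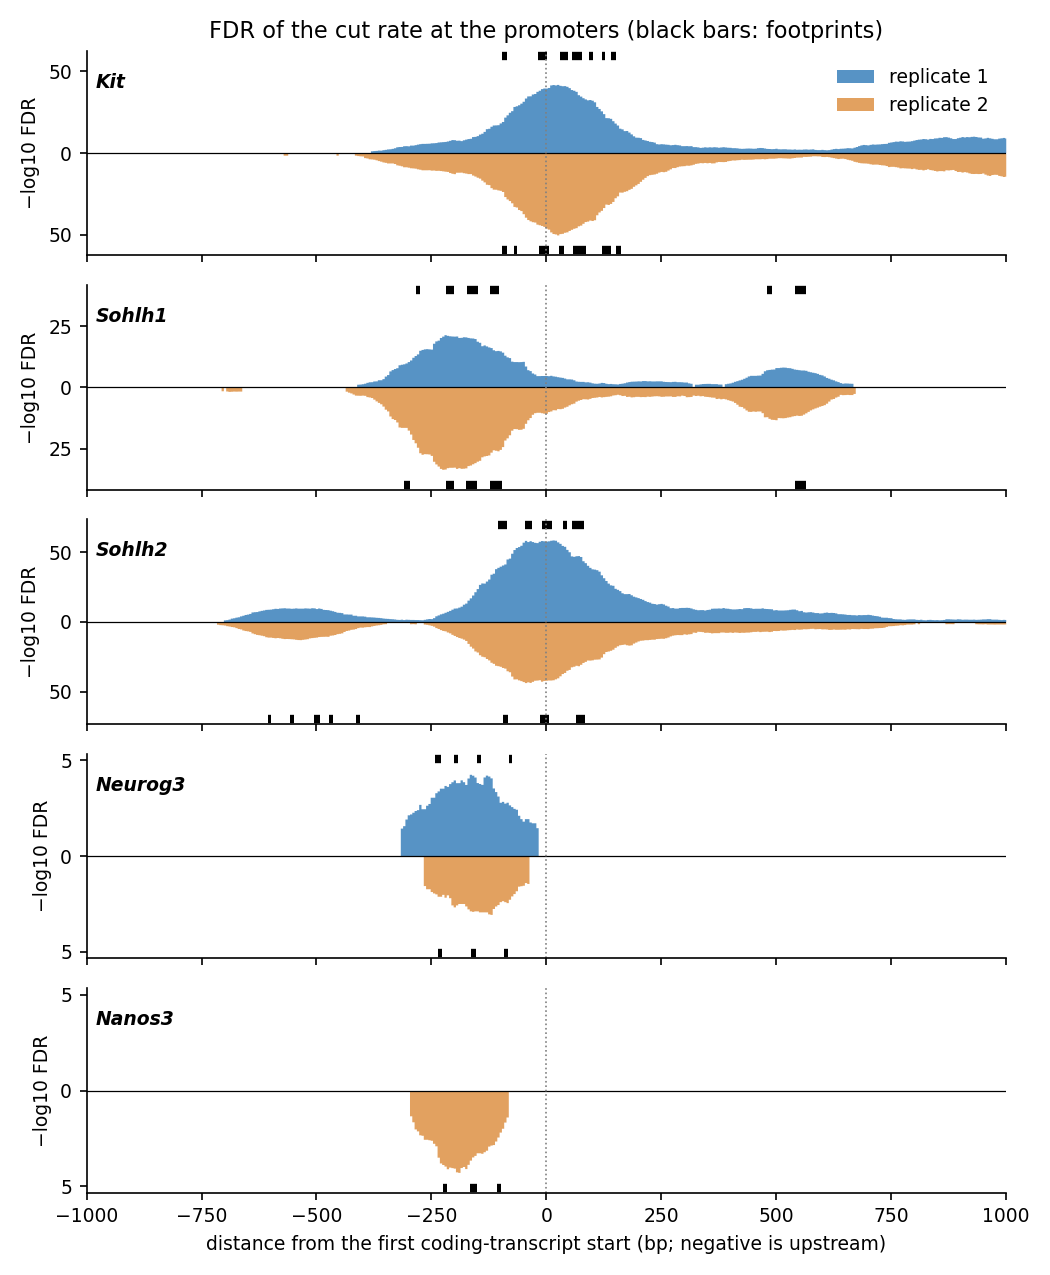
FDR of the cut rate, as -log10, within 1000 bp of the first coding-transcript start of each gene, with replicate 1 above and replicate 2 below the line and footprints of the promoter peaks as black bars. Scales differ between panels: Kit, Sohlh1 and Sohlh2 have broad open stretches of 1068 to 1703 bases in both libraries, Neurog3 has 301 and 234 bases upstream of the start, and Nanos3 has 211 bases in replicate 2 and none in replicate 1.

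The Sohlh1 promoter was also rich in E-boxes, the CANNTG sequences that helix-loop-helix proteins bind. Motifs were searched as exact letters on both strands in RefSeq promoters, from 250 bp before to 50 bp after the start, of which 20150 belonged to protein-coding genes. At Sohlh1, CACGTG occurred 3 times, and 8.03% of promoters held it at all and 0.114% held it 3 or more times. CAGGTG occurred 2 times, so that 5 E-boxes were present in all. At least 1 E-box was held by 68.7% of promoters and 5 or more by 1.53%. One CACGTG, at -211 to -206, lay inside a footprint of both libraries and overlapped an AGGTCA, the core letters of nuclear receptor sites, at -215 to -210. Promoters with AGGTCA made up 14.4%. Of the 3 GC boxes (GGGCGG, held by 47.8% of promoters), the one at -162 to -157 also lay inside footprints of both libraries. These matches describe letters and show no bound factor.

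Distal peaks of Sohlh1 numbered 7 in replicate 1 and 8 in replicate 2. The strongest lay at -5.6 kb between genes, nearest to Sohlh1, with 1.81 and 1.99. Both values exceeded the 95th percentile of peaks outside promoters, 1.73 in replicate 1 and 1.56 in replicate 2. The peak at 10.8 kb had 1.61 and 1.15, and its footprints of both libraries touched a CACATG E-box and an AGATAA. Over 200 bp, 70.6% of distal peaks of replicate 2 held an E-box of any form and 10.4% held AGATAA. The peak at -11.4 kb had 0.704 and 0.891 and lay nearer to the start of Kcnt1, a potassium channel gene. One at -32.1 kb, in an intron of Kcnt1, was listed in replicate 2 alone (0.377). Of the 8 regions, 3 had Sohlh1 as the nearest start, so the others may belong to neighbours.

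Sohlh2 encodes the paralogue that pairs with SOHLH1 (ENSMUSG00000027794.4, chr3:55182028-55209957, plus strand, 1 start). Its promoter peak lay across the start and had 2.81 in replicate 1 and 2.52 in replicate 2 (2.67 ± 0.21, SD, n = 2). A second promoter peak, centred 467 bp upstream, had 0.618 and 0.868, and another, in an intron, had 0.263 and 0.260. With 1703 bases in replicate 1 and 1560 in replicate 2 below an FDR of 0.05, Sohlh2 had the most such bases of the 5 promoters (percentiles 96.3 and 92.7). Its lowest FDR was 4.74e-60 and 2.21e-44.

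Footprints of the main Sohlh2 peak numbered 5 in replicate 1 and 3 in replicate 2, and all 3 of replicate 2 overlapped one of replicate 1. One of them met the start itself, from -9 to 12 in replicate 1 and from -13 to 4 in replicate 2, and touched a GC box on the opposite strand at -10 to -5. The promoter also held 1 TGACGT, the core of cyclic AMP response elements, which 8.73% of promoters hold. The upstream peak had 5 footprints in replicate 2 and none in replicate 1, so protection there was not reproduced.

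Around Sohlh2 there were 3 distal peaks in replicate 1 and 2 in replicate 2, the fewest of the 5 genes. One of them was strong, with 1.60 in replicate 1 and 2.19 in replicate 2, at -35.4 kb. It lay in an intron of Ccdc169, whose start was nearest at 4303 bp. The peak at -29.8 kb, in the same gene, had 0.532 and 0.381. A peak at 40.7 kb, listed in replicate 1 alone with 0.312, was nearest to Dclk1. No distal region of Sohlh2 had Sohlh2 as the nearest start.

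Neurog3 encodes a helix-loop-helix factor known from spermatogonial progenitors and from endocrine precursors of pancreas and gut (ENSMUSG00000044312.4, chr10:62133090-62134763, plus strand, 3 starts). The gene lies within an intron of Fam241b, which runs on the minus strand. Its promoter peak, centred 166 bp upstream, had 0.640 in replicate 1 and 0.664 in replicate 2 (0.652 ± 0.017, SD, n = 2). This was the weakest promoter seen in both libraries, and the values of the libraries lay close together. Bases below an FDR of 0.05 numbered 301 in replicate 1 and 234 in replicate 2 (percentiles 41.1 and 38.6), and the lowest FDR was 5.30e-05 and 0.000910. In the shorter peak lists, in which each peak reached an FDR below 0.001, the peak was present in replicate 1 alone.

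Footprints at the Neurog3 promoter were hardly shared. The peak held 4 in replicate 1 and 3 in replicate 2, and 1 pair overlapped, over 6 bases of the capitals printed above. The promoter held 1 CAGCTG E-box, 1 CCAAT and 1 AGATAA, which 15.7%, 37.8% and 9.45% of promoters hold. A second peak, in replicate 2 alone with 0.279, lay 1124 bp downstream over a UTR exon of the gene, and it also fell in a promoter window of Fam241b. No other promoter peak of the 5 genes was shared with another protein-coding gene.

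Some peaks near Neurog3 were stronger than its promoter. Distal peaks numbered 6 in replicate 1 and 8 in replicate 2, and the one at -4.2 kb, in the Fam241b intron, had 1.71 and 2.31. Its value was thus above that of the promoter in both libraries, and Neurog3 had the nearest start. The peak at -18.6 kb had 0.849 and 1.23, and that at -5.8 kb had 0.823 and 0.698. Others were weaker than the promoter in at least 1 library, such as that at 3.2 kb with 0.565 in replicate 1 and 0.898 in replicate 2. In replicate 2, the highest value within reach was 3.39, at 50.2 kb, 5654 bp from the start of Tspan15. Replicate 1 had 4.35 at the same place, just beyond the 50 kb limit, so its absence from the count of replicate 1 comes from the limit. Of the 8 regions, 2 had Neurog3 as the nearest start.

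Nanos3 encodes an RNA-binding protein that represses target mRNAs with PUMILIO and deadenylase partners (ENSMUSG00000056155.6, chr8:84173731-84185217, minus strand, 2 starts). Its coding transcript starts at base 84176552 and a non-coding one at 84185217. At the coding start replicate 2 had a peak of 0.827, centred 190 bp upstream and present in both its lists (lowest FDR 5.06e-05, 211 bases below 0.05). Replicate 1 had no peak there and 0 bases below an FDR of 0.05 within 1000 bp. Nanos3 was thus the 1 gene of the 5 whose promoter differed in presence between the libraries. The 3 footprints of the peak rest on replicate 2 alone. No peak fell in the window of the non-coding start, but one with 0.667 in replicate 1 and 0.657 in replicate 2 ended 24 and 37 bp outside it.

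Nanos3 had the most distal peaks of the 5 genes, 18 in replicate 1 and 25 in replicate 2 (21.5 ± 4.9, SD, n = 2). These counts stood at percentiles 98.8 and 99.3 of all protein-coding genes. Per 100 kb searched there were 16.6 and 23.0, against medians of 3.00 and 3.95. Most lay in a group 3 to 35 kb upstream of the coding start, bounds set after the values were seen. This group spanned 30.9 kb (chr8:84179801-84210720) and held 19 of the 24 distal regions, 14 of them in both libraries and 5 in replicate 2 alone. For all 19, the nearest start of any protein-coding gene was a Nanos3 start. From -7.5 kb outwards this was the non-coding start at base 84185217. Which gene is nearest by coding starts alone was not worked out. Starts of 4930432K21Rik, Cc2d1a, Zswim4, D8Ertd738e and Mri1 also lay within 50 kb of some of the 19 regions. Peaks at starts of genes that are not protein-coding were not left out of the distal counts. The regions at -25.1 and -26.2 kb lay over exon sequence of such a gene, Gm37352.

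In replicate 1 all peaks of this group exceeded the median of distal peaks. Values ran from 0.667 to 2.35 in replicate 1 and from 0.276 to 2.26 in replicate 2, and 8 regions exceeded 1 in both. The strongest, at -21.1 kb over an exon of the lincRNA gene Gm26887, had 2.35 and 2.20. Those at -22.0 kb (1.90 and 2.22) and -3.6 kb, in an intron of Nanos3 (1.74 and 2.26), followed. Each of the 3 exceeded the Nanos3 promoter value of replicate 2. The strongest region in 1 library alone, at -3.4 kb, had 0.985 in replicate 2. Replicate 1 had 237 bases below an FDR of 0.05 there without a listed peak. Value and FDR were not tied in the same way everywhere. In replicate 1 the group's peak at -25.1 kb had 0.688 with a lowest FDR of 0.0304, and a Kit peak at -36.2 kb had 0.226 with 0.00754. In replicate 2 the group's peak at -30.3 kb had 0.276 with 0.00545. Whether the way peaks are called sets the lowest values of the group in replicate 1 was not tested.

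Sequence in the Nanos3 group was rich in G and C for distal peaks. The regions had a median GC content of 62.6% and a highest of 76.7%, whereas 200 bp windows on all distal peaks of replicate 2 had a median of 51.5% (5th to 95th percentile 42.0 to 63.0%). Such windows on promoter peaks of replicate 2 had a median of 62.0%, close to the group. GC boxes occurred in 7 of the 19 windows of the group, in 10.01% of all distal windows and in 43.4% of promoter windows. In 6 of the 19 regions a GC box was touched by footprints of both libraries. No distal window of Sohlh1, Sohlh2 or Neurog3 held one. The peak at -21.1 kb also held CTTCCGG, the core of ETS factor sites, outside its central 200 bp. That at -22.0 kb held ACGTCA, the reverse complement of TGACGT (on either strand in 2.41% of distal windows), inside its central 200 bp. Footprints of both libraries touched both. The group held 46 footprints in replicate 1 and 66 in replicate 2.

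**Figure D3:**
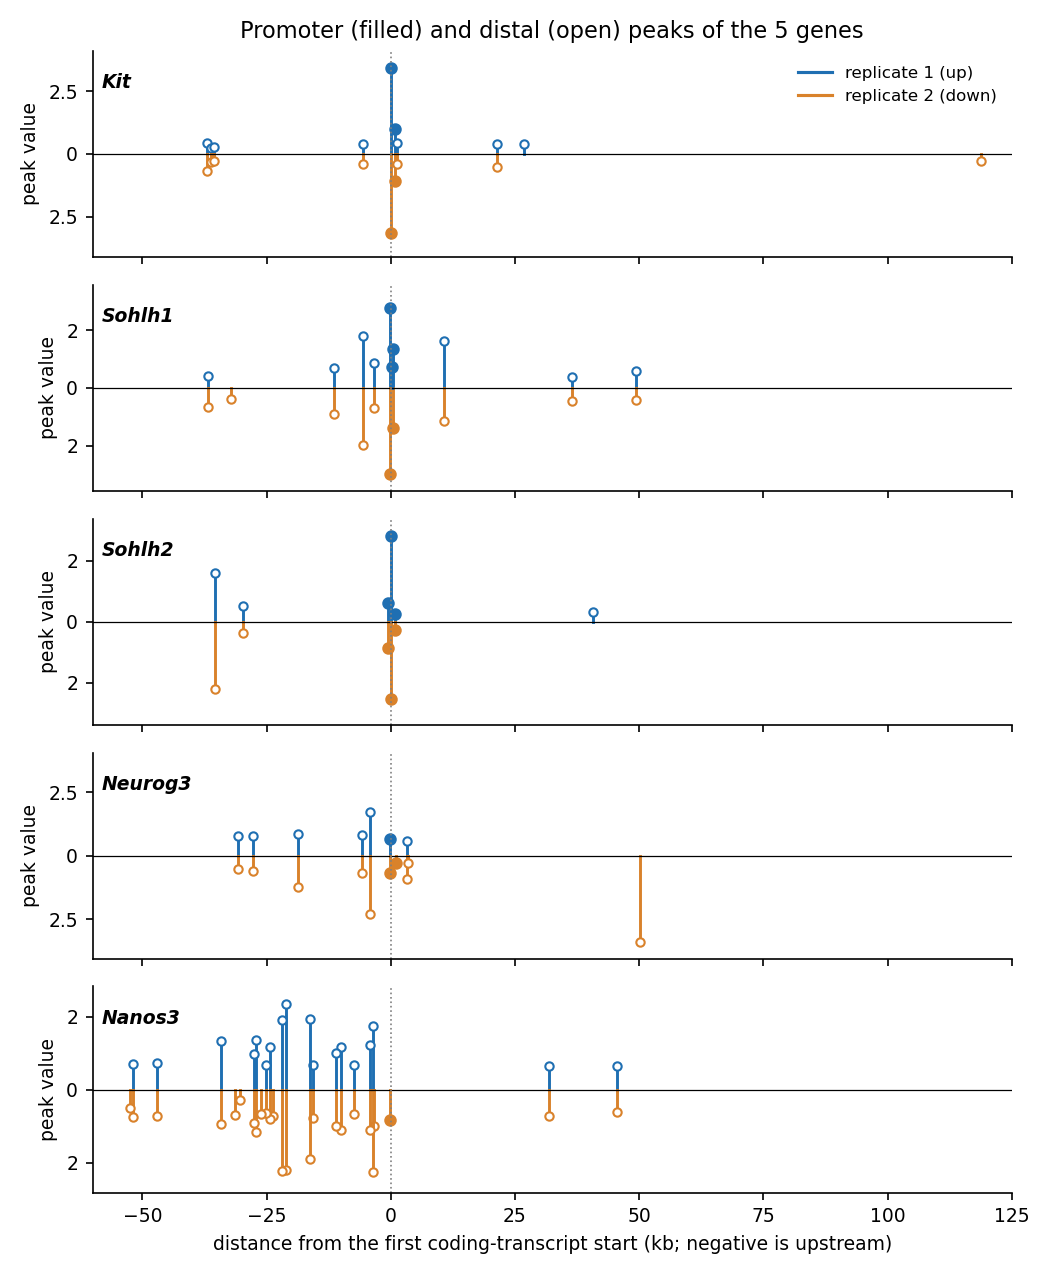
Peak values of promoter peaks (filled) and distal peaks (open) against distance from the first coding-transcript start in kb, with replicate 1 drawn up and replicate 2 down. Nanos3 has 18 and 25 distal peaks, most of them 3 to 35 kb upstream, and its promoter peak is drawn in replicate 2 alone; the Neurog3 peak at 50.2 kb (3.39 in replicate 2) lies just outside the limit in replicate 1.

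The 4 promoters open in both libraries differed little between them. The log2 ratio of replicate 2 over replicate 1 was -0.12 for Kit, 0.10 for Sohlh1, -0.16 for Sohlh2 and 0.05 for Neurog3. Over the 15057 genes open in both libraries the median was -0.07, and 5th and 95th percentiles were -0.54 and 0.36, so the 4 genes lay well inside the spread of all genes. Of 51 distal regions of the 5 genes, 39 were counted in both libraries, 10 in replicate 2 alone and 2 in replicate 1 alone. The 10 include the Neurog3 region at 50.2 kb, where replicate 1 had a peak of 4.35 just beyond the 50 kb limit. Of the 39, 18 were higher in replicate 2 and 21 in replicate 1. Of 11 promoter regions, 8 were in both, 2 in replicate 2 alone and 1 in replicate 1 alone. Genome-wide, 67.1% of distal peaks of replicate 2 and 80.01% of those of replicate 1 overlapped a peak of the other library. Of distal footprints at the 5 genes, 63 of 160 in replicate 2 and 65 of 112 in replicate 1 overlapped one of the other library. In shared distal peaks genome-wide 46.7% and 58.0% did, whereas the counts of the 5 genes include regions listed in 1 library.

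**Figure D4:**
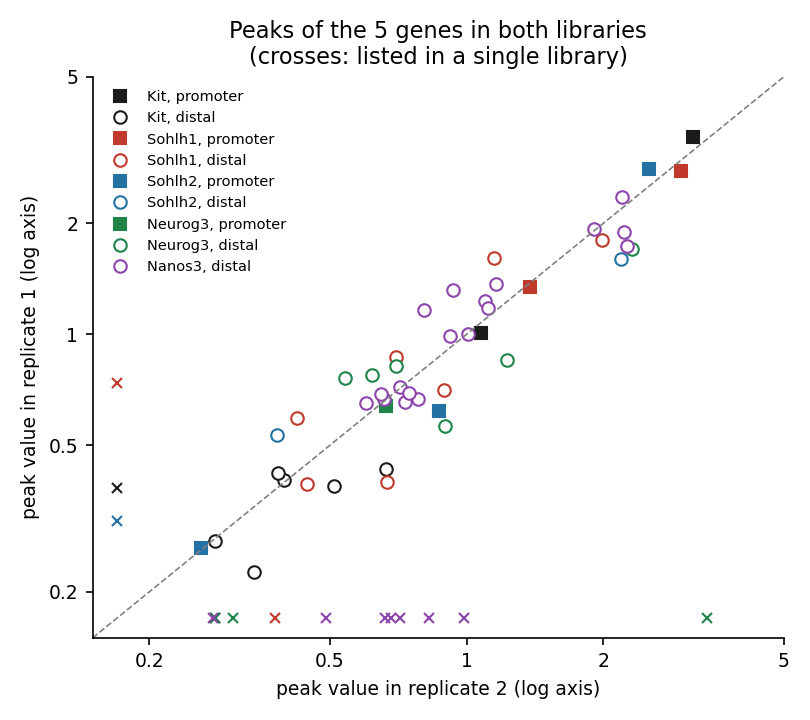
Peak value in replicate 1 against replicate 2 (both axes log) for each promoter region (squares) and distal region (circles) of the 5 genes, with the line of equal values dashed. Crosses at the axes are regions listed in 1 library, 12 in replicate 2 alone and 3 in replicate 1 alone; the cross at 3.39 is the Neurog3 region at 50.2 kb, which replicate 1 holds just beyond the limit.

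Base composition differed among the 5 promoters. The observed over expected CpG ratio, within 500 bp of the start, was 0.675 for Kit, 0.522 for Sohlh2, 0.506 for Neurog3, 0.363 for Sohlh1 and 0.193 for Nanos3, and the median of all genes was 0.561. Over the strongest promoter peak alone the order of Sohlh1 and Sohlh2 was the other way, with 0.619 for Sohlh1 and 0.519 for Sohlh2. By value in both libraries, the nearest other genes were Zfp605 for Kit (3.43 and 3.15), Timm9 for Sohlh1 (2.77 and 2.98), Syngr1 for Sohlh2 (2.81 and 2.51) and Foxe3 for Neurog3 (0.640 and 0.668). With 2 libraries such closeness is common: 68 to 107 genes lay within a log2 distance of 0.1 of each of the 4.

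Partners of the 5 gene products were widely open. These lists were drawn up with earlier results of these data known and describe the setting only. All 16 genes of KIT signalling had promoter peaks in both libraries, with a median value of 4.37 ± 0.73 (SD, n = 2), set against 68.7% and 1.36 ± 0.089 for all genes. The highest were the adaptor Grb2 (14.4 ± 0.90), the ubiquitin ligase Cbl (13.2 ± 2.3) and the kinase subunit Pik3ca (11.6 ± 1.3). Kitl, the ligand of KIT, had 1.94 ± 0.094. All 13 partners and relatives of the helix-loop-helix factors were open too (median 4.64 ± 0.0098), led by Tcf3 (8.53 ± 0.51), which encodes a common dimer partner, and by the inhibitors Id2 (7.06 ± 0.19) and Id4 (6.89 ± 0.32). Of 9 cofactors and relatives of NANOS proteins, 8 were open in both (median 5.395 ± 0.042), with Cnot8 at 15.3 ± 0.94, Cnot1 at 12.5 ± 0.57 and Dazl at 10.4 ± 0.39, and Nanos2, the paralogue of stem cells, had no promoter peak in either library.

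Genes of undifferentiated spermatogonia were open at a share not far from that of all genes. Of 18 such genes, 15 were open in both libraries, 1 had a peak in a single library, and Nanos2 and T, the other 2, had none (median 0.791 ± 0.014). All genes stood at 68.7%, and with the shorter lists 13 of the 18 were open, or 72.2%, against 63.4% of all genes. Etv5 (19.1 ± 1.8) and Taf4b (15.9 ± 0.063) stood highest. The 18 genes of spermatogonial differentiation had a median of 2.29 ± 0.051, below the 2.87 of Sohlh1 and the 2.67 of Sohlh2. Meioc (12.4 ± 0.41), Ddx4 (9.05 ± 0.72) and Tex101 (8.93 ± 0.90) led these 18 genes. The Sertoli cell markers had a similar median, 2.10 ± 0.048.

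Kit and Neurog3 also serve cells other than spermatogonia, so markers of those cells were set beside them and beside the 68.7% of all genes open in both libraries. Of 7 mast cell genes, 1 was open in both libraries (Hdc, 1.43 ± 0.41) and 1 in a single library, and 5, Cpa3 and Fcer1a among them, had no promoter peak. Of 5 melanocyte genes, 2 were open, of which Pmel (7.69 ± 0.39) shares its peak with Cdk2 and Dct had 0.422 ± 0.095, and Mlana and Tyr had no peak. Leydig cells, which also use KIT, had 6 of 7 genes open, led by Star (2.92 ± 0.49), Nr5a1 (1.21 ± 0.058) and Cyp17a1 (0.751 ± 0.081), and Hsd3b1 had no peak. Of 7 genes of blood progenitors and erythroid cells, 5 were open with low values (Cd34 0.999 ± 0.13, Epor 0.982 ± 0.058, Tal1 0.544 ± 0.097). One of the 5, Gata1, is also in the Sertoli list and counts as open in both lists. Alas2 and Hba-a1 had no peak. Of 7 genes of endocrine pancreas and gut, 6 were open in both and 1 in a single library, led by Chga (2.03 ± 0.44), Insm1 (0.666 ± 0.030) and Nkx2-2 (0.404 ± 0.016). The Sertoli list was led by Dmrt1 (5.51 ± 0.66), Wt1 (3.39 ± 0.19) and Sox9 (2.94 ± 0.57). Other genes of that list were low, such as Gata1 (0.443 ± 0.14) and Fshr (0.283 ± 0.043). With the shorter lists, 2 of the 7 endocrine genes had a peak in each library and the other 5 had none, and the counts open in both were 3 of 7 for blood, 1 of 5 for melanocytes, 4 of 7 for Leydig cells and 1 of 7 for mast cells. The part of these cells in the values of Kit and Neurog3 was not tested.

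**Figure D5:**
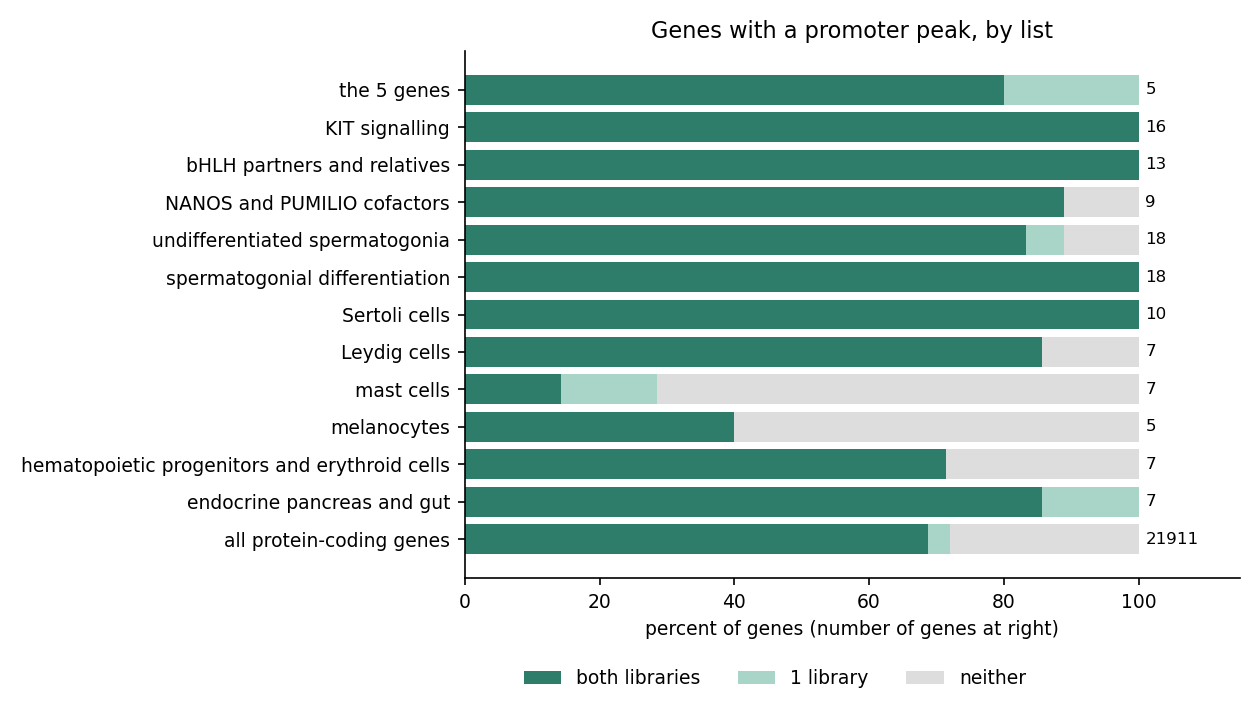
Percent of genes with a promoter peak in both libraries, in 1 library or in neither, for the 5 genes, 11 related lists and all 21911 protein-coding genes, with the number of genes at the right of each bar. The 5 genes stand at 4 in both and 1 in a single library, the lists of KIT signalling, helix-loop-helix partners, spermatogonial differentiation and Sertoli cells are open throughout, and 1 of 7 mast cell genes is open in both.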

How the data were processed

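DNase-seq libraries of 2 replicates were used as deposited. Per the deposited text descriptions, peaks, footprints and the FDR track were made by the authors on mm10 from the alignments of each library alone, not pooled. For the aligner, the callers and their versions, no name is given in the sources used here. Column 7 of the deposited peak lists is a signal, scaled per library by the authors. It moves in whole steps (0.00538 in replicate 1, 0.00377 in replicate 2) whose meaning is not given. The FDR track is a q-value per stretch, deposited by the authors only below 0.05. In the deposited footprints the p-value is 0.01 throughout, so only positions were used.

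Promoter windows were 1000 bp on each side of any GENCODE M21 start of a protein-coding gene. Computed here were the highest value of peaks overlapping them (1 bp or more) and distal peaks within 50 kb outside all of them. Footprint overlaps, FDR bases and motif matches were also computed (Python 3.11.15, numpy 2.4.6, pandas 2.3.3, pysam 0.24.0, matplotlib 3.10.9). The steps that assign peaks to genes were checked on simulated data. RefSeq promoters (GRCm38.p6) matched all 5 genes by symbol. Alternatives were other windows, reaches, starts and peak lists, and each library by itself. The 5 genes, the 11 lists and the 15 motifs were chosen with earlier results of these data known. The motifs, searched on both strands, were the E-box CANNTG with its forms CAGCTG and CACGTG and CAGGTG, the GC box GGGCGG, the CCAAT box, the TATA box TATAAA, the response element TGACGTCA with its core TGACGT, the GATA motif AGATAA, the receptor core AGGTCA with its direct repeat at a spacer of 5 bases, the DMRT core TGTATCA, the ETS core CCGGAAG and the NRF1 motif. The forms overlap CANNTG, and the repeat and the full response element overlap their cores. Of those found in none of the 5 RefSeq promoters, TATAAA is held by 12.1% of promoters, TGACGTCA by 2.31%, TGTATCA by 1.69%, the NRF1 motif by 1.38% and the direct repeat by 0.00496%.

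Named were all promoter peaks, per gene the 3 strongest distal peaks shared by the libraries and the strongest in 1 library, per list the 3 highest open genes and the first 2 by alphabet with no peak, genes sharing a promoter peak, and the nearest gene by value. Kitl, Gata1, Fshr, the neighbouring genes and the group 3 to 35 kb upstream of Nanos3 were named after their values were seen.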

Additional observations from a re-analysis of the deposited data

How the results depend on the processing

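The number of genes with a promoter peak in both libraries was 4 under the chosen settings, 5 with windows of 2500 bp, 3 with the shorter peak lists and 4 with windows of 500 bp, the 5′ end alone, peak midpoints, peaks at or above the median value, or starts of protein-coding transcripts alone, the last chosen after the data were seen. Taken by itself, replicate 1 gave 4 and replicate 2 gave 5. The mean promoter value moved by more than the replicate SD for Neurog3, to 0.320 with the shorter lists, and for Nanos3, to 1.15 with windows of 2500 bp, which take in a peak beyond its non-coding start. With the 5′ end of the gene alone, Nanos3 had no promoter peak in either library, and leaving out a library gave 0 and 0.827. The mean number of distal peaks was 8 for Kit (4.5 within 20 kb, 2.5 with the shorter lists), 7.5 for Sohlh1 (4 within 20 kb), 2.5 for Sohlh2 (0 within 20 kb, 7 within 100 kb, 1.5 with the shorter lists), 7 for Neurog3 (4.5 within 20 kb, 12 within 100 kb) and 21.5 for Nanos3 (14 with the shorter lists). Reach and list length set these counts by construction. The other 73 values of this kind moved by less than the replicate SD for promoter values, and by at most 1.5 times for counts of genes and of distal peaks. Within that bound, distal counts did move past the replicate SD, for example for Kit to 12 within 100 kb, for Sohlh1 to 10 within 100 kb and 5 with the shorter lists, and for Nanos3 to 15 within 20 kb. Leaving out a library cannot move a mean promoter value past the replicate SD, so those comparisons say nothing on stability. For Nanos3 the SD of 0.585 exceeds the mean of 0.413, so even the fall to 0 counted as within it. Of the gene lists, endocrine pancreas and gut fell to 2 open genes, against 6, with the shorter lists. No paired analysis was possible because there is 1 group. With 2 libraries an SD is imprecise, the depth is unknown, and a peak not listed is no proof of closed chromatin.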
